A study of Mus musculus with 14 samples.

Results

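Myc is the centre of a small network of transcription factors that share one partner and compete for one DNA motif, and this account follows 9 of its genes (Myc, Max, Mxd1, Mxd3, Mxd4, Mxi1, Mnt, Mlx and Mlxip) through mouse mammary carcinoma spheroids. The 9 genes were chosen by symbol, as members of the network, from 19525 genes in the count table, and each was present once and detected in all 14 libraries, with 235 to 3730 counts per gene and library. MYC pairs with MAX and activates genes that carry the E-box CACGTG, many of them for ribosome production, nucleotide synthesis and the cell cycle. MXD1, MXD3, MXD4, MXI1 and MNT also pair with MAX and recruit SIN3 corepressor complexes to the same motif. MLX forms a parallel arm with the glucose-sensing factor MLXIP, also called MondoA, and can pair with some of the MXD proteins and with MNT. In breast carcinoma MYC is a frequently amplified oncogene.

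The cells were 4T1, a line from a mouse triple-negative mammary carcinoma, grown for 5 days as spheroids in lung-like medium, which mimics the nutrients of lung interstitial fluid. All lines carried a stably integrated shRNA vector selected as a polyclonal population. ASP shSCR (n = 4, replicates 1 to 4) had a nontargeting shRNA and 700 µM aspartate, and NoASP shSCR (n = 3, replicates 2 to 4) had the same shRNA with no aspartate added. ASP shGRIN2D (n = 3, replicates 1 to 3) had aspartate and an shRNA against Grin2d, a subunit of the NMDA-type glutamate receptor that can bind aspartate, and ASP shDHPS (n = 4, replicates 1 to 4) had aspartate and an shRNA against Dhps, the enzyme of the first step of eIF5A hypusination. The RNA was the cytosolic input of a polysome experiment, so values are relative mRNA levels in the cytosol and say nothing of protein. Levels are given as CPM, the usual count scaled to library size, here with TMM factors, and log2 fold changes come from edgeR's quasi-likelihood test across all genes, with a gene called at a Benjamini-Hochberg adjusted p under 0.05.

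Libraries held 12731123 to 23231378 counts. Dhps was at 6.93 ± 1.74 CPM (SD, n = 4) in ASP shDHPS against 19.4 ± 2.28 in ASP shSCR (n = 4), and it fell by 1.48 on the log2 scale (edgeR adjusted p = 8.31e-06). Grin2d was low throughout, at 2.46 ± 0.590 CPM in ASP shGRIN2D against 3.23 to 4.16 CPM in the 4 ASP shSCR libraries, and its log2 difference of -0.55 did not pass the test (edgeR adjusted p = 0.516). The libraries labelled shGRIN2D, at 2.06, 2.17 and 3.13 CPM, all lay below the lowest ASP shSCR library. Libraries of 12% of all genes did not overlap between these groups. Grin2d was also low in NoASP shSCR replicate 2 (3.05 CPM) and ASP shDHPS replicate 1 (2.21 CPM), which had no shRNA against it. The epithelial marker Krt8 lay at 1261 to 1787 CPM, while the leukocyte marker Ptprc had at most 12 counts, the endothelial marker Pecam1 at most 10 and the fibroblast marker Dcn at most 1. The fibroblast list also held Pdgfra, which was detected with 357 to 730 counts. Replicate 2 of ASP shSCR and replicate 2 of NoASP shSCR stood apart from the other libraries: the summed level of 11 hypoxia genes was 3095 and 2212 CPM there, against 1301 to 1671 CPM in the other 12 libraries. Results that move with those libraries are given below with and without them.

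The E-box itself lies upstream of several of these genes. RefSeq promoter windows (GRCm38.p6, 250 bases before to 50 after a start site) were found for 8 of the 9 genes, all but Myc, and 4 of the 8 held CACGTG, a motif that reads the same on both strands. Across all 27025 genes with a window the share with CACGTG was 8.09%, and across their 32851 windows it was 7.15%. The 4 motifs are shown because they are the network's own binding motif in the network's own genes. The motif is in capitals, the strand is that of the gene, and no transcript of the GENCODE M21 basic annotation covered any of the 4 motifs:
Mxd4: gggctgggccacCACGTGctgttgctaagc
Mnt: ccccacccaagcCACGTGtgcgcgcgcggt
Mlx: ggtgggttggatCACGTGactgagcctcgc
Max: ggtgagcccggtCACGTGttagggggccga
These lie at chr5:34187912-34187941 (minus strand) for Mxd4, chr11:74830789-74830818 (plus strand) for Mnt, chr11:101087238-101087267 (plus strand) for Mlx and chr12:76962234-76962263 (minus strand) for Max. The first base of the motif was 219 bases before the start site in Mxd4, 123 in Mnt, 40 in Mlx and 3 in Max, where the motif straddled the RefSeq start. Mxi1 had no CACGTG but carried ACGTG, the core of the hypoxia response element, outside CACGTG in 2 of its windows. On either strand this was found in 13.6% of all windows and 15.3% of all genes. Mxi1 had several windows, which give more chances of a match than a single window. The cAMP response element TGACGTCA was found in 0 of the 8 genes, against 2.03% of all genes and 1.79% of all windows. A match of letters is a description of the sequence and does not show binding.

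Myc was the most abundant of the 9 mRNAs per length in every group. Scaled by the longest coding transcript, its level was 58.7 ± 10.6 CPM per kilobase in ASP shSCR (SD, n = 4), 65.1 ± 15.5 in NoASP shSCR (n = 3), 61.9 ± 9.65 in ASP shGRIN2D (n = 3) and 78.4 ± 5.97 in ASP shDHPS (n = 4). Max came next, at 36.8 ± 2.25 to 42.0 ± 1.85 CPM per kilobase, and the lowest single Myc library (47.4) lay above the highest Max library (45.1). Mlx came after Max, at 17.6 ± 3.31 to 21.1 ± 2.77 CPM per kilobase. Mxd3, Mxd4, Mnt and Mxi1 lay at 8.86 to 16.2 CPM per kilobase in their group means and were not separated from each other beyond their spread in ASP shSCR, and Mlxip and Mxd1 were lowest, at 5.46 to 8.40. The place of Mxi1 depends on which transcript is counted, since it moved from 7th in every group to 2nd or 3rd when the median transcript length was used.

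**Figure D1:**
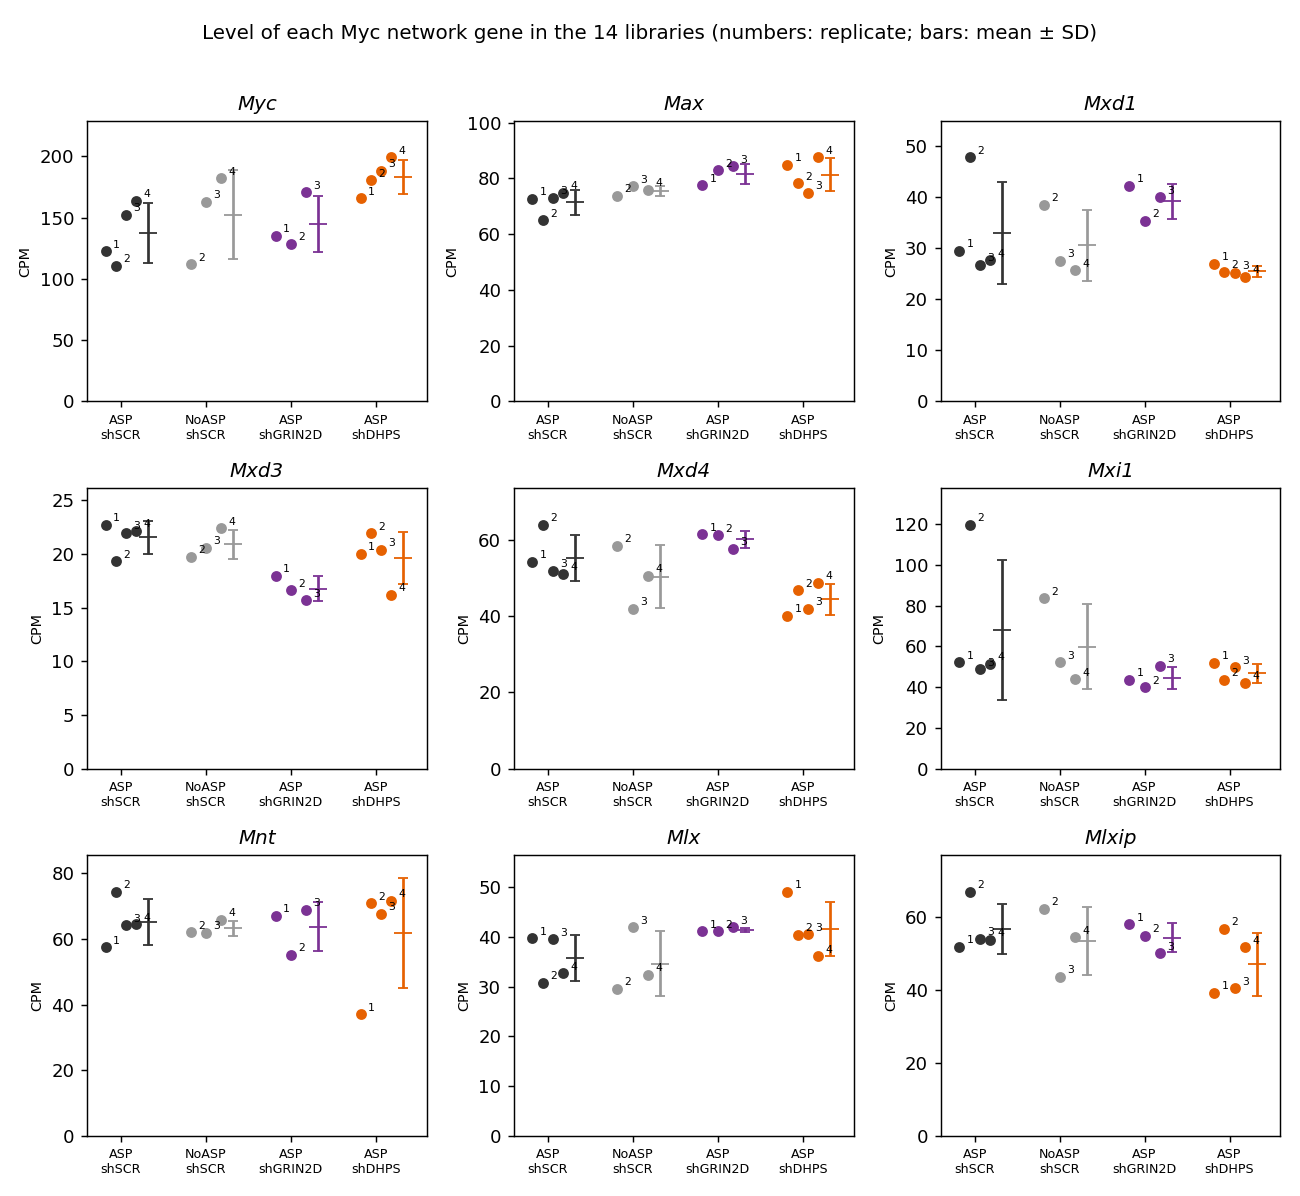
Level of each of the 9 genes (CPM, linear axis from 0) in the 14 libraries, by group; points are libraries, numbers are replicates and bars are mean ± SD. Myc was at 166 to 199 CPM in the 4 ASP shDHPS libraries, and Mxi1 was highest in replicate 2 of ASP shSCR (119.8 CPM) and of NoASP shSCR (83.5 CPM).

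The first question was whether aspartate changed the network. With aspartate, 0 of the 9 genes passed the test between ASP shSCR and NoASP shSCR, where 0% of all 19525 genes did, and 0 of the 9 reached an unadjusted p under 0.05, against 2.17% of all genes. None of the 9 separated the libraries of the groups, against 2.71% of all genes. Myc was at 122, 111, 152 and 163 CPM in ASP shSCR and at 112, 163 and 182 CPM in NoASP shSCR. The ranges of these libraries overlapped, with replicate 2 lowest in both groups. Replicate numbers paired these groups, and Myc was lower with aspartate in replicate 2 (111 against 112 CPM), replicate 3 (152 against 163) and replicate 4 (163 against 182). Without pairing, the log2 fold change of Myc was -0.15 ± 0.15 (SE; 95% interval -0.45 to 0.15). Of 16 alternative settings, the replicate block among them, 0 called Myc and all kept its direction. Across the 9 genes the fold changes ran from -0.15 (Myc) to 0.19 (Mxi1), with a median of 0.046 against 8.7e-04 for all genes, and DESeq2 also called 0 of the 9. In bulk libraries such as these, fewer cells of a type and less RNA per cell cannot be told apart.

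Among the 4 groups the mean Myc level was highest in ASP shDHPS, although the difference from ASP shSCR did not pass the test. Myc was at 166, 181, 188 and 199 CPM in ASP shDHPS, with a mean of 183 ± 13.9 (SD, n = 4), against 137 ± 24.7 in ASP shSCR. All 4 ASP shDHPS libraries lay above all 4 control libraries, but the gap between the lowest of one group and the highest of the other was small (165.9 and 163.5 CPM). The log2 fold change was 0.42 ± 0.14 (SE; 95% interval 0.14 to 0.70) with an edgeR adjusted p of 0.0843. It was 0.33 (adjusted p = 0.116) without replicate 2 of both shSCR groups. When ASP shDHPS replicate 1 was left out as well it was 0.38 (adjusted p = 0.0387), and with only these groups in the fit it was 0.42 (adjusted p = 0.0458). With the replicate block the edgeR adjusted p was 3.24e-04, the lowest of the alternatives, although these groups were not taken as paired. The call of Myc thus depended on how the fit was made. Against NoASP shSCR the difference was 0.27 (95% interval -0.036 to 0.57, adjusted p = 0.372). Replicate numbers paired the libraries in that comparison, and with the replicate block it was 0.35 (edgeR adjusted p = 0.0174), so Myc passed there, as did 1036 genes in all against 354 without the block. Against ASP shGRIN2D, where Myc was at 135, 129 and 171 CPM, it was 0.34 (95% interval 0.037 to 0.65, adjusted p = 0.267), and 0.39 (adjusted p = 0.0264) without replicate 2 of both shSCR groups and ASP shDHPS replicate 1.

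The 5 MAX-binding antagonists all had negative fold changes in ASP shDHPS against ASP shSCR, from -0.54 (Mxi1) to -0.076 (Mnt), and none passed the test. In that comparison 0 of the 9 genes were called, where 4.22% of all genes and 6.93% of those whose mean level reached 5 CPM were, and DESeq2 called 1 of the 9, Mxd4. The replicate block called 4 of the 9 (Myc, Mxd4, Mxi1 and Mlxip), and it also called more of all genes. These groups were not taken as paired. The unadjusted p was under 0.05 for 6 of the 9 (Myc, Max, Mxd1, Mxd4, Mxi1 and Mlxip), against 19.3% of all genes, and the libraries did not overlap for 2 of the 9 (Myc above, Mxd4 below), against 11.1% of all genes. The 6 were counted with replicate 2 of ASP shSCR, which lay far above the rest of its group for Mxd1, Mxi1 and Mlxip. Over the alternative settings the fold change ran from -0.67 to -0.11 for Mxi1, -0.46 to -0.13 for Mxd1 and -0.37 to -0.10 for Mlxip. Mxd4, a MAX partner typical of differentiating and resting cells, was at 40.1, 46.8, 41.9 and 48.8 CPM in ASP shDHPS and at 54.4, 64.1, 51.9 and 51.1 CPM in ASP shSCR. Every ASP shDHPS library was thus below every ASP shSCR library, and the log2 fold change was -0.32 ± 0.11 (SE; adjusted p = 0.0922). It was -0.24 (adjusted p = 0.230) without replicate 2 of both shSCR groups. Mxd1 was at 27.0, 25.3, 25.2 and 24.3 CPM in ASP shDHPS and at 29.5, 47.8, 26.8 and 27.7 CPM in ASP shSCR. Replicate 2 of ASP shSCR carried most of that difference, which was -0.37 ± 0.15 with it (adjusted p = 0.190) and -0.13 without replicate 2 of both shSCR groups (adjusted p = 0.566).

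The libraries labelled shDHPS and shGRIN2D differed in Mxd1 and Mxd4. These were the 2 of 9 genes called between ASP shDHPS and ASP shGRIN2D, both lower in ASP shDHPS, where 2.82% of all genes were called and 1.62% were called lower, and 4.66% of those whose mean level reached 5 CPM were called. Mxd1, an antagonist induced when many cell types differentiate, was at 42.2, 35.4 and 40.0 CPM in ASP shGRIN2D, so that all 3 libraries lay above the 4 of ASP shDHPS. It was lower by 0.62 ± 0.17 on the log2 scale in ASP shDHPS than in ASP shGRIN2D (95% interval -0.96 to -0.28, edgeR adjusted p = 0.0422). Between the knockdown means of 25.5 and 39.2 CPM lay those of ASP shSCR (32.9 ± 9.97) and NoASP shSCR (30.6 ± 6.95). Mxd4 was at 61.6, 61.2 and 57.7 CPM in ASP shGRIN2D, again above all 4 ASP shDHPS libraries. It was lower by 0.44 ± 0.11 in ASP shDHPS than in ASP shGRIN2D (95% interval -0.67 to -0.20, edgeR adjusted p = 0.0360). Libraries of 15.1% of all genes did not overlap in this comparison. Both adjusted p-values were close to the threshold. Mxd1 lost its call whichever 1 of the 7 libraries was left out (fold changes of -0.69 to -0.56), and Mxd4 lost it in 6 of the 7 cases (-0.49 to -0.39). Replicate 2 of both shSCR groups is in neither group compared and enters through the shared scaling and estimate of the spread. Without those libraries both genes stayed called (Mxd1 -0.62, adjusted p = 3.33e-04, and Mxd4 -0.43, adjusted p = 0.00757). Scaling by library size alone ended both calls (adjusted p = 0.0582 and 0.0571), and filterByExpr or a robust prior ended that of Mxd1 (0.0512 and 0.0667). Krt14, a basal keratin, was also called lower in ASP shDHPS in this comparison (-0.58), and its part in these results was not tested. Max (-0.0029, 95% interval -0.19 to 0.18) and Mlx (0.0050, 95% interval -0.26 to 0.27) had nearly the same level in both knockdowns.

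**Figure D2:**
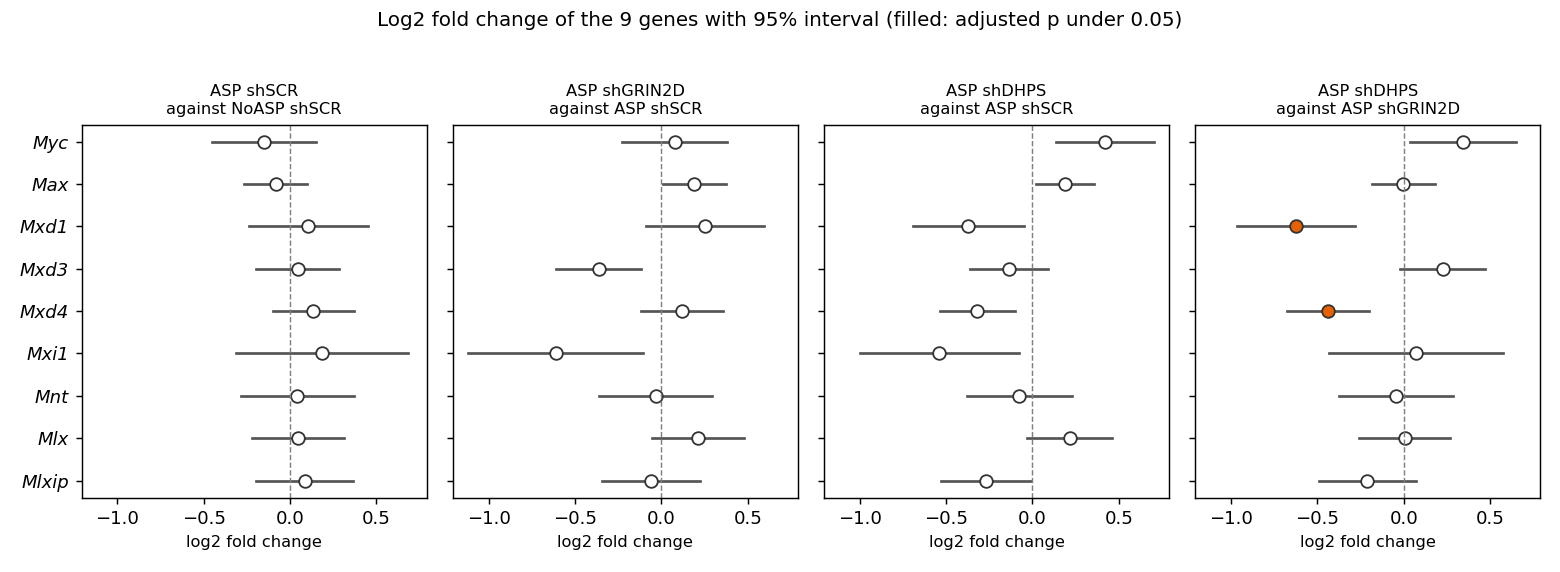
Log2 fold change of the 9 genes (points) with 95% intervals (lines) in 4 comparisons, filled where the edgeR adjusted p was under 0.05. The 2 filled points are Mxd1 (-0.62) and Mxd4 (-0.44) between the knockdowns, and Myc in ASP shDHPS against ASP shSCR (0.42) has an interval above 0 but an adjusted p of 0.0843.

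The libraries labelled shGRIN2D had Myc near the control. Between ASP shGRIN2D and ASP shSCR 0 of the 9 genes were called, where 1.16% of all genes were, DESeq2 called 0 of the 9, and 3 of the 9 (Max, Mxd3 and Mxi1) had an unadjusted p under 0.05, against 10.4% of all genes. The log2 fold change of Myc was 0.077 (95% interval -0.23 to 0.38, adjusted p = 0.923). The libraries did not overlap for 3 of the 9 (Max and Mlx above, Mxd3 below), against 12% of all genes. Mxd3, the antagonist that is made in cycling cells during S phase, was at 17.97, 16.6 and 15.7 CPM in ASP shGRIN2D and at 22.7, 19.3, 22.0 and 22.2 CPM in ASP shSCR. All 3 knockdown libraries lay below the 4 controls, with a log2 fold change of -0.36 ± 0.12 (SE; adjusted p = 0.197). Proliferation markers also lay lower: 11 of 12 had a negative fold change in this comparison, with a median of -0.18 against 0 for all genes and 0 called, and their summed level was 2798 to 2934 CPM in ASP shGRIN2D against 3140 to 3342 CPM in ASP shSCR. Their part in the level of Mxd3 was not tested. Max was at 77.5, 82.9 and 84.3 CPM against 65.0 to 74.9 CPM in the controls (0.19 ± 0.09, adjusted p = 0.444). Mxd1 had a fold change of 0.25 (adjusted p = 0.622), which became 0.49 and passed the test (adjusted p = 0.0156) once replicate 2 of both shSCR groups was left out.

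Mxi1 had the widest spread within ASP shSCR after scaling by its mean, and its high values fell in the libraries with high hypoxia genes. MXI1 is an antagonist that is known as a target of hypoxia-inducible factors. It was at 119.8 CPM in replicate 2 of ASP shSCR and at 48.8 to 52.2 CPM in the other 3 libraries of that group. In NoASP shSCR it was at 83.5 CPM in replicate 2, 52.1 in replicate 3 and 43.9 in replicate 4. In the knockdowns it ranged from 39.9 to 50.5 CPM in ASP shGRIN2D and from 42.2 to 52.0 CPM in ASP shDHPS. The 2 libraries with over 80 CPM were thus the same 2 that held 3095 and 2212 CPM of the 11 hypoxia genes. The log2 fold change of Mxi1 was -0.54 ± 0.22 in ASP shDHPS against ASP shSCR (adjusted p = 0.186) and -0.61 ± 0.24 in ASP shGRIN2D against ASP shSCR (adjusted p = 0.343). Without replicate 2 of both shSCR groups these became -0.11 (adjusted p = 0.659) and -0.19 (adjusted p = 0.642). The hypoxia list had 11 of 11 fold changes negative and a median of -0.45 in ASP shDHPS against ASP shSCR, and 7 of 11 positive and a median of 0.064 without those libraries. Of the 11 genes 1 was called, Ankrd37, at 1.81 ± 0.256 CPM in ASP shDHPS against 9.07 ± 11.5 in ASP shSCR, and it was not called without those libraries. Mxd1 (47.8 CPM), Mxd4 (64.1), Mnt (74.3) and Mlxip (67.0) were also highest within their group in replicate 2 of ASP shSCR, the library where Myc was lowest. The part of hypoxia genes in these levels was not tested.

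**Figure D3:**
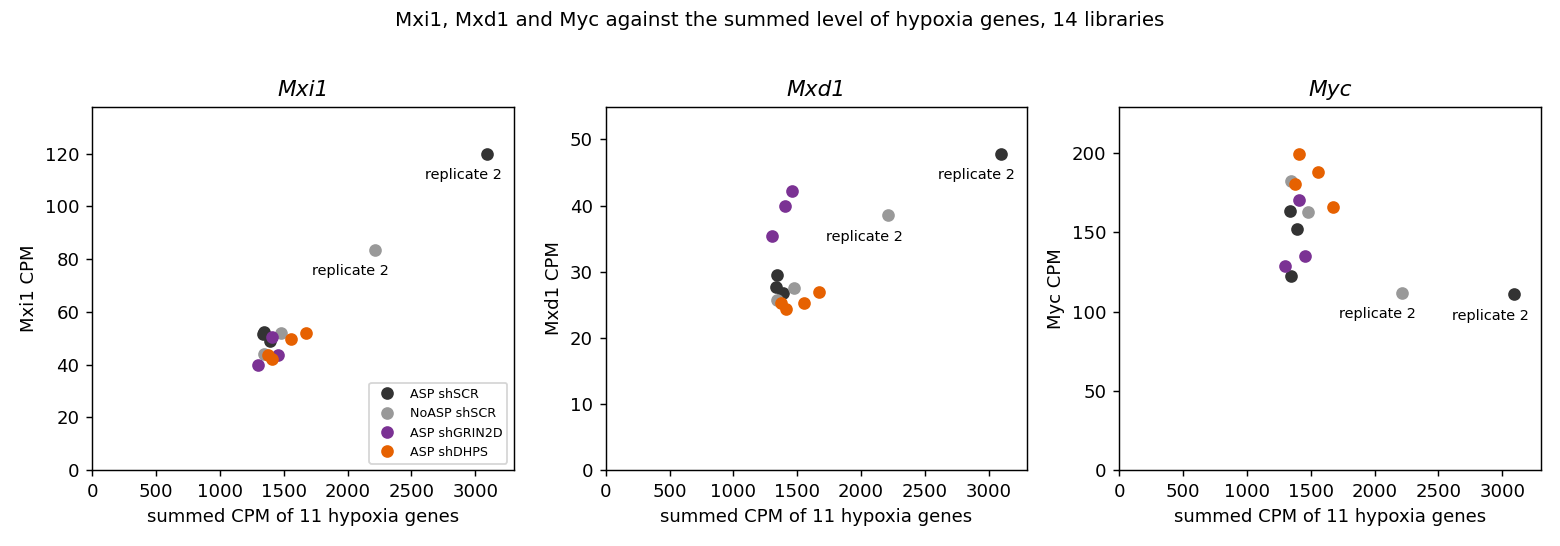
CPM of Mxi1, Mxd1 and Myc (vertical axes) against the summed CPM of 11 hypoxia genes (horizontal axis) in the 14 libraries, coloured by group. The replicate 2 libraries of ASP shSCR and NoASP shSCR lie to the right, at 3095 and 2212 CPM, where Mxi1 is highest (119.8 and 83.5 CPM) and Myc lowest (111 and 112 CPM).

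Over all 14 libraries Myc ran opposite to Mxd1 and Mxd4, and less closely by rank to Mxi1 and to Mlxip, which is not an antagonist. Over the 14 libraries, which share groups and replicate numbers, the Pearson r of log2 CPM between Myc and another gene was -0.75 for Mxd1, -0.70 for Mxd4 and -0.64 for Mxi1, and 0.57 for Max. For Mlxip it was -0.59, and for Mlx, Mnt and Mxd3 it was 0.34, 0.069 and -0.014. Many other genes ran more opposite to Myc. Among 10224 genes ordered from most to least like it, Mxd1 stood at 10010, Mxd4 at 9836, Mxi1 at 9525 and Mlxip at 9248. By rank (Spearman) the values were -0.80 for Mxd1, -0.73 for Mxd4, -0.57 for Mlxip and -0.50 for Mxi1. All of these values include replicate 2 of both shSCR groups, where Mxi1 was highest and Myc lowest. Mxd1, Mxd4 and Mlxip were also highest within each shSCR group in those libraries. Values without those libraries are not given, so the relations of Mxd1, Mxd4, Mxi1 and Mlxip to Myc may rest on them. With group means removed, and those libraries kept, Pearson r was -0.73 for Mxd1, -0.56 for Mxd4, -0.66 for Mxi1 and -0.39 for Mlxip. The summed antagonists per kilobase divided by Myc per kilobase gave 1.16 ± 0.392 in ASP shSCR (SD, n = 4), 0.995 ± 0.377 in NoASP shSCR (n = 3), 0.970 ± 0.127 in ASP shGRIN2D (n = 3) and 0.696 ± 0.0484 in ASP shDHPS (n = 4). The ratio was highest in replicate 2 of ASP shSCR (1.72), and the 4 ASP shDHPS libraries (0.634 to 0.753) reached the lowest library of NoASP shSCR (0.752). The ratio used the longest coding transcript of each gene, and its size depends on that choice. By median transcript length Mxi1 lay at 45.6 rather than 13.5 CPM per kilobase in ASP shSCR, where Myc lay at 75.3 rather than 58.7. In ASP shDHPS Mxi1 lay at 31.4 rather than 9.30. The ratio is a description of mRNA and was not tested.

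Mnt, Max, Mlx and Mlxip passed the test in none of the 6 comparisons. MNT is the most widely expressed of the antagonists, and its mRNA lay at 57.4 to 74.3 CPM in ASP shSCR, 61.8 to 65.8 in NoASP shSCR and 55.1 to 68.9 in ASP shGRIN2D. In ASP shDHPS replicate 1 was at 37.0 CPM while the other 3 were at 67.7 to 71.7 CPM, so the fold change against ASP shSCR was -0.076 with that library and 0.11 without it. Max, the common partner, was at 84.9, 78.2, 74.8 and 87.5 CPM in ASP shDHPS against 72.6, 65.0, 73.1 and 74.9 CPM in ASP shSCR (0.19 ± 0.08, adjusted p = 0.205). Mlx had fold changes of 0.21 and 0.22 in the knockdowns of Grin2d and Dhps against ASP shSCR, comparisons that share their controls. Mlxip was at 39.3, 56.8, 40.5 and 51.8 CPM in ASP shDHPS against 52.0, 67.0, 54.2 and 53.8 CPM in ASP shSCR (-0.27 ± 0.13, adjusted p = 0.243). Of the targets of the MLX arm, 0 of 7 measured above 3 counts were called in any of the 6 comparisons.

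Against NoASP shSCR the knockdowns called 0 of the 9 genes, where 0.681% of all genes were called for ASP shGRIN2D and 1.81% for ASP shDHPS. The unadjusted p was under 0.05 for 2 and 0 of the 9, against 9.28% and 16.3% of all genes, and DESeq2 called 0 and 0 of the 9. Without replicate 2 of both shSCR groups Mxd1 was called in ASP shGRIN2D against NoASP shSCR (0.55, edgeR adjusted p = 0.0191), where it was 0.36 with them (adjusted p = 0.556). In ASP shGRIN2D the libraries did not overlap for 2 of the 9 (Max above, Mxd3 below), against 14.8% of all genes. In ASP shDHPS they overlapped for all 9, where 11.9% of all genes did not.

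Other network genes were low or were not called. Mycn was not in the table. Mycl, a paralog of Myc, was at 4.26 ± 0.258 CPM in ASP shSCR, and Mlxipl, the paralog of Mlxip known from liver, had at most 4 counts in any library. Mga and Zbtb17, which bind MAX and MYC, were at 35.2 ± 4.04 and 26.4 ± 2.06 CPM in ASP shSCR, and 0 of the 4 measured genes were called in any comparison.

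Targets of MYC had mostly positive fold changes in ASP shDHPS, small in size, and few passed the test. Of 24 genes long known to be induced by MYC, 20 had a positive fold change against ASP shSCR, with a median of 0.25 against 0.0046 for all genes, and 2 were called higher and 0 lower, where 1.65% of all genes were called higher and 2.57% lower. Of the genes whose mean level reached 5 CPM, 2.8% were called higher and 4.14% lower. Odc1, the rate-limiting enzyme of polyamine synthesis, which makes the precursor of the spermidine that DHPS uses, was at 788 ± 110 CPM against 513 ± 52.1 CPM and rose by 0.62 (edgeR adjusted p = 0.00111). Tfrc, the transferrin receptor, was at 290 ± 38.3 CPM against 208 ± 37.4 CPM and rose by 0.48 (edgeR adjusted p = 0.0288). Without replicate 2 of both shSCR groups the list's median was 0.15, with 2 called higher. Against ASP shGRIN2D the same list had 19 positive fold changes and a median of 0.13, and Odc1 was called (0.54, edgeR adjusted p = 0.00671). In ASP shGRIN2D against ASP shSCR 20 of 24 were positive with a median of 0.082 and 0 called, and without replicate 2 of both shSCR groups 14 of 24 were positive with a median of 0.0080. With aspartate against without, 9 of 24 were positive and 0 were called.

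**Figure D4:**
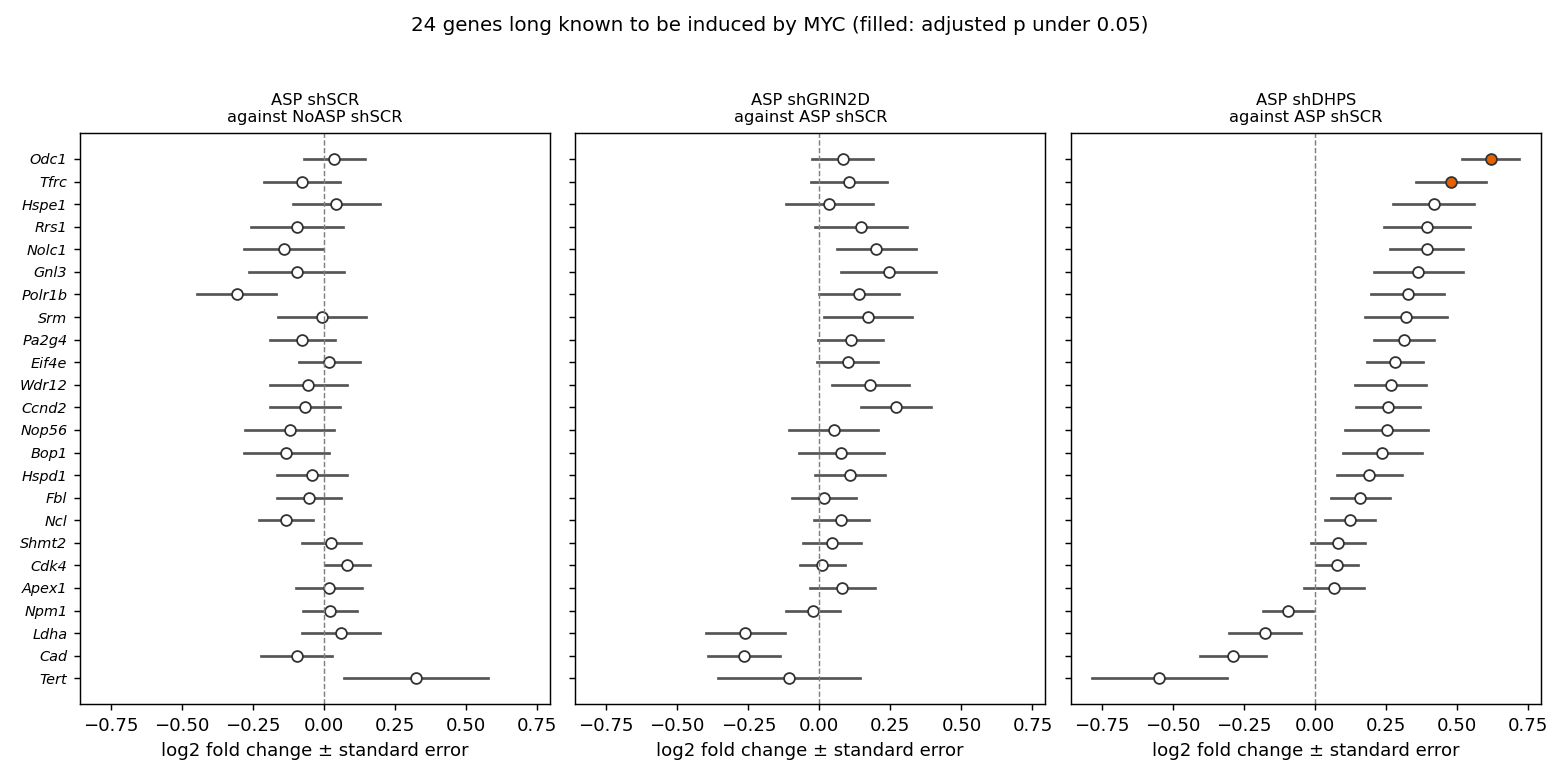
Log2 fold change ± standard error of 24 genes known to be induced by MYC in 3 comparisons, in the order of their change in ASP shDHPS against ASP shSCR, filled where the edgeR adjusted p was under 0.05. In that comparison 20 of 24 points lie above 0 and 2 (Odc1 and Tfrc) are filled.

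The deposited gene set file holds the Hallmark sets of MYC targets. Set V2, rich in genes of ribosome assembly, had 45 of 58 positive fold changes in ASP shDHPS against ASP shSCR and a median of 0.22, with 3 called higher (Slc29a2 0.67, Slc19a1 0.61 and Wdr74 0.48) and 0 lower. Slc29a2 is a nucleoside transporter, Slc19a1 the reduced folate carrier and Wdr74 a ribosome assembly factor. Set V1 had 147 of 201 positive, a median of 0.088, and 3 called higher (Odc1, and the proteasome subunits Psmd8 at 0.48 and Psmb3 at 0.35) with 1 lower, Iars (-0.31), an isoleucyl-tRNA synthetase. These calls were 5.17% of V2 and 1.99% of V1, beside 4.22% of all genes and 6.93% of those whose mean level reached 5 CPM, so their number in V1 was below the background and in V2 close to it. Without replicate 2 of both shSCR groups the medians were 0.12 for V2 and 0.031 for V1, with 3 called higher in each and Iars no longer called. With ASP shDHPS replicate 1 left out too, the median of V1 turned to -0.0079 and that of V2 was 0.10. The number of genes called ran from 2 to 34 in V1 and from 1 to 24 in V2 over the alternatives, the highest with the replicate block. In ASP shGRIN2D against ASP shSCR 1 gene of V1 was called, the splicing factor Rnps1, which fell by 0.40 (edgeR adjusted p = 0.0417), and 0 of V2. With aspartate against without, 10 of 58 genes of V2 and 94 of 201 of V1 were positive and 0 were called.

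The genes that MYC represses and the proteins that act on MYC showed single calls in ASP shDHPS against ASP shSCR, a number near the background of 4.22% of all genes, or 6.93% of those whose mean level reached 5 CPM, for lists this short. Of 9 measured genes known to be repressed by MYC 1 was called, Cdkn1b, the cyclin-dependent kinase inhibitor p27, which was at 91.0 ± 5.49 CPM against 119 ± 13.6 CPM and fell by 0.39 (edgeR adjusted p = 0.0125). Of 12 genes of MYC protein turnover 1 was called, Skp2, a ubiquitin ligase subunit that targets both MYC and p27, which fell by 0.45 (edgeR adjusted p = 0.00660). Of 12 coactivators 1 was called, the acetyltransferase gene Ep300, which fell by 0.40 (edgeR adjusted p = 0.04995). Of 6 measured genes for proteins that bind Myc mRNA 1 was called, Igf2bp2, which fell by 0.37 (edgeR adjusted p = 0.0410). Of 8 corepressor genes and 13 genes upstream of Myc transcription 0 were called. Of 12 proliferation markers 1 was called, Mki67, which fell by 0.51 (edgeR adjusted p = 0.0231) while 5 of the 12 had a positive fold change. Ep300 and Mki67 were not called without replicate 2 of both shSCR groups. Epithelial markers also differed: Epcam and Krt14 were called lower in ASP shDHPS (-0.52 and -0.54) and Krt18 was called lower in ASP shGRIN2D (-0.46), each against ASP shSCR, and their part in these results was not tested.

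The genes whose levels ran most like Myc over the 14 libraries, among the 10224 whose mean level reached 5 CPM, were Adamts1 (Pearson r = 0.95), Ccn2 (0.94), Gclm (0.93), Plk2 (0.93) and Dusp3 (0.91). Those least like it were Ddah2 (-0.93), Lrrk2 (-0.92) and Pafah1b3 (-0.92). Adamts1 encodes a secreted protease and Ccn2 connective tissue growth factor, while Gclm is a subunit of the enzyme that starts glutathione synthesis. For 7 of the other genes the closest was Gpi1, a glycolytic enzyme, for Mxi1 (0.97), Map7d1 for Mnt (0.97), Als2cl for Mlxip (0.96), Taf12 for Mlx (0.94), Ifi203 for Mxd1 (0.94), Atp6v1h for Max (0.87) and Lmnb1 for Mxd3 (0.87). The libraries share groups and replicate numbers, so these values are a description of 14 points.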

How the data were processed

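RNA-seq was made from the cytosolic input of 14 spheroid libraries with a stranded mRNA kit. The authors trimmed reads with Trim Galore 0.6.6, aligned them to GRCm39 with STAR 2.6.1, estimated counts with Salmon 1.4.0 and deposited them rounded to whole numbers, leaving out genes that no condition expressed in 2 or more replicates. The deposited tables of the authors' comparisons hold DESeq2 1.34.0 fold changes and gene set results and were not used. The deposited gene set file gave only the members of the Hallmark MYC target sets.

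The counts were tested with edgeR 4.0.16 (R 4.3.3): TMM scaling, glmQLFit and glmQLFTest with group as the only term, all 14 libraries, and Benjamini-Hochberg adjustment over 19525 genes. DESeq2 1.42.0 was an alternative. The fit was tested on simulated counts. Replicates were independent spheroid pellets by the study's methods, and p-values measure the spread between them. Replicate numbers were taken to pair libraries between ASP shSCR and NoASP shSCR (r of deviations 0.203 to 0.514) and between ASP shDHPS and NoASP shSCR (0.205 to 0.373), since each of 3 pairs exceeded 0.1.

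The 9 genes and the gene lists were chosen with earlier results of these data known. Of each list, genes called in a comparison with ASP shSCR were named, and of the Hallmark sets the 3 largest changes each way. Similarity of pattern was Pearson's r of log2 CPM (prior count 2), and the closest gene to Mxd4 is not reported here. Lengths were those of the longest coding transcript in GENCODE M21 (GRCm38), and the promoter windows came from RefSeq (GRCm38.p6), a different build from that of the counts.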

Additional observations from a re-analysis of the deposited data

Results flagged for a closer look

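In 4 of 18 gene and group sets of 4 libraries, 1 library lay so far from the other 3 that its gap to the nearest exceeded Dixon's 95% critical value, where chance gives about 1 set in 20. Replicate 2 of ASP shSCR was that library for Mxi1 (gap over range 0.952, 119.8 CPM), Mxd1 (0.871, 47.8 CPM) and Mlxip (0.853, 67.0 CPM). Replicate 1 of ASP shDHPS was that library for Mnt (0.886, 37.0 CPM). No cause was tested.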

How the results depend on the processing

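Each of the 9 genes had at least 235 counts in a library, and 3 or 4 libraries a group gave 95% intervals for Myc of about 0.3 on either side of the log2 fold change. Of the alternative values of the 9 fold changes 764 kept their direction and their side of the threshold, 17 lost the call, 12 gained it and 53 turned their direction. The cause of these changes was not tested. The added settings were chosen after seeing the data: the block in the shSCR libraries alone, and leaving out ASP shDHPS replicate 1 with both shSCR replicate 2 libraries.

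In ASP shSCR against NoASP shSCR the replicate block gave Mlx -0.0045, the block in the shSCR libraries alone -0.0034, and the fit without both replicate 2 libraries Mnt -0.045. Leaving out 1 library gave -0.13 to 0.31 for Mxd1, -0.24 to 0.50 for Mxi1, -0.028 to 0.099 for Mnt, -0.056 to 0.21 for Mlx and -0.044 to 0.21 for Mlxip. In ASP shGRIN2D against ASP shSCR the block gave Mnt 0.025, and the fit without both replicate 2 libraries Myc -0.012, Mnt 0.038 and Mlxip 0.029, with -0.057 to 0.17 for Myc, -0.091 to 0.062 for Mnt and -0.11 to 0.030 for Mlxip when 1 library was left out. In ASP shDHPS against ASP shSCR Mnt was 0.18 without those libraries and ASP shDHPS replicate 1, and -0.16 to 0.11 without 1 library. In ASP shDHPS against ASP shGRIN2D Max was 0.0079 with library size alone, 5.3e-04 with only those groups and 0.0025 without both replicate 2 libraries, Mnt was 0.14 and Mlx -0.086 with ASP shDHPS replicate 1 left out too, and leaving out 1 library gave -0.040 to 0.036 for Max, -0.0023 to 0.17 for Mxi1, -0.14 to 0.14 for Mnt and -0.086 to 0.067 for Mlx. In ASP shGRIN2D against NoASP shSCR library size alone gave Mnt -0.023 and Mlxip -0.012, the block Myc 0.074 and the fit without both replicate 2 libraries Mnt -0.0065, with -0.25 to 0.075 for Myc, -0.048 to 0.10 for Mnt and -0.10 to 0.15 for Mlxip when 1 library was left out. In ASP shDHPS against NoASP shSCR the block gave Mnt 0.026, the last added setting Mnt 0.14 and Mlxip 0.015, and leaving out 1 library -0.11 to 0.15 for Mnt and -0.31 to -0.062 for Mlxip.

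Of the 9 genes, 1 was called in ASP shGRIN2D against ASP shSCR with the replicate block and also without both replicate 2 libraries. In ASP shDHPS against ASP shSCR 4 were called with the block (Myc, Mxd4, Mxi1 and Mlxip), and 1 each with only those groups, by DESeq2 and with the last added setting. Between ASP shDHPS and ASP shGRIN2D 0 were called with library size alone, 1 with filterByExpr, 1 with a robust prior, 0 to 1 without 1 library, and 3 with the last added setting, where Myc was called too. Against NoASP shSCR 1 was called for ASP shGRIN2D without both replicate 2 libraries and 1 for ASP shDHPS with the block. Across the alternatives Myc in ASP shDHPS against ASP shSCR stayed between 0.33 and 0.51 (adjusted p 3.24e-04 to 0.256), with the replicate block at 0.44 and the lowest of these p-values.

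Over all genes the replicate block called 2, 611, 2150, 1468, 338 and 1036 genes in the 6 comparisons, in the order ASP shSCR against NoASP shSCR, ASP shGRIN2D and then ASP shDHPS against ASP shSCR, ASP shDHPS against ASP shGRIN2D, and ASP shGRIN2D and then ASP shDHPS against NoASP shSCR, where the fit without the block called 0, 226, 824, 550, 133 and 354. DESeq2 called 0, 442, 1379, 933, 327 and 898. Of the 24 MYC-induced genes the block called 13 in ASP shDHPS against ASP shSCR, and leaving out 1 library gave 1 to 4. In the comparisons not taken as paired the block is only a hint. Correlations of same-numbered libraries were -0.117 to 0.042 between ASP shGRIN2D and ASP shSCR, 0.040 to 0.258 between ASP shDHPS and ASP shSCR and 0.0053 to 0.231 between ASP shDHPS and ASP shGRIN2D. Between ASP shGRIN2D and NoASP shSCR they were 0.123 to 0.164, above 0.1 but from only 2 pairs. ASP shDHPS and ASP shSCR were each taken as paired with NoASP shSCR, but not with each other, because replicate 4 had only 0.040. Replicates 1 to 3 of those groups had 0.258, 0.195 and 0.201. Whether the block suits that comparison was therefore not settled. In the paired comparisons the block changed no call of the 9 genes other than that of Myc against NoASP shSCR.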
